A study of Mus musculus with 6 samples.

Results

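Small noncoding RNA genes and the long RNAs whose introns carry them were followed in primary microglia (PM) that had all received GSK-J4, an inhibitor of H3K27 demethylases, with or without lipopolysaccharide (LPS). Members were chosen by symbol: all genes named Snora, Snord, Scarna, Rnu or Snhg with a number, together with Rmrp, Rpph1, Terc and Gas5. This gave 143 of the 24411 genes in the count tables, of which 127 were small RNA genes and 16 were host RNAs (the Snhg genes and Gas5). The rule also names the Rn7s and Rny symbols (7SK, 7SL and Y RNAs), but no counted gene had such a symbol, so these RNAs could not be analysed. Of the 6 libraries, 3 came from PM treated with GSK-J4 (10 μM) and 3 from PM given GSK-J4 at the same dose together with LPS at 10 ng/ml, all at 4 h. Both groups thus share GSK-J4, and the comparison asks what LPS did in its presence; untreated and LPS-only cells were not analysed here. PM had been shaken off mixed glia grown from the pooled brains of 3-day-old ICR mice, so a library is a culture and not an animal. The study's methods call the 3 samples of a treatment independent.

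Small nucleolar RNAs (snoRNAs) guide chemical modification of other RNAs: C/D-box snoRNAs guide ribose methylation and H/ACA-box snoRNAs guide pseudouridylation, mostly of ribosomal RNA, while small Cajal body RNAs (scaRNAs) do so on spliceosomal RNAs. In mammals most of them are cut out of the introns of host genes, among them ribosomal protein genes and the Snhg genes. Rmrp and Rpph1 are the catalytic RNAs of RNase MRP and RNase P, and Terc is the template RNA of telomerase. The Rnu11 and Rnu12 products, U11 and U12 snRNA, take part in the splicing of the rare minor-class introns.

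Of the 143 members, 114 had at least 1 count and 29 had none in any of the 6 libraries. Only 35 had enough counts to be tested, 28 small RNA genes and 7 host RNAs. In LPS + GSK-J4 libraries 1 of the 35, Rnu11, rose and 1, Snord15b, fell (edgeR quasi-likelihood test, Benjamini-Hochberg adjusted p at most 0.01). These 2 calls are 5.71% of the members tested, against 13.9% of the 10133 genes tested, with 8.42% of all genes called higher and 5.46% called lower. No member passed when a log2 fold change of at least 1.5 was also required, which 3.76% of all genes did. At an unadjusted edgeR p under 0.05, 4 of the 35 members passed, 1 higher and 3 lower, against 34.8% of all genes. DESeq2 called Snord15b only, and 10.4% of all genes. The estimates had a median standard error of 0.325 on the log2 scale for members and 0.216 for all genes, so a small change was harder to detect among members. Of the 35 members, 24 passed the filter on low counts in each group, 7 only through the GSK-J4 libraries, 1 (Rnu11) only through the LPS + GSK-J4 libraries and 3 through a mixture, which bears on any count over them.

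Rnu11 and Rnu12 are shown because one rose and its partner in the minor spliceosome did not pass the test. The transcript sequences are from GENCODE M21 (mm10), 5′ to 3′, with the uridine-rich stretch of the Sm-protein binding site in capitals (ATTTTTTG in Rnu11, ATTTTTG in Rnu12). Rnu11 lies at chr4:132270080-132270213 on the minus strand and Rnu12 at chr15:83149644-83149794 on the plus strand, each annotated as an snRNA gene. Host genes were looked up only for snoRNAs and scaRNAs, so none was sought for either.
Rnu11: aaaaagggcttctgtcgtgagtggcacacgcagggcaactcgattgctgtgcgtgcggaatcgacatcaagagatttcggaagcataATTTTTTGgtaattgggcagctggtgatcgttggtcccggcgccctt
Rnu12: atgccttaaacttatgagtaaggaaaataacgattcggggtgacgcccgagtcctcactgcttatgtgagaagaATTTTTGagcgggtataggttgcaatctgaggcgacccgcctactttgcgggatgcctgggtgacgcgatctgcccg

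Rnu11 had 9, 18 and 9 counts in the GSK-J4 libraries and 16, 25 and 26 in the LPS + GSK-J4 libraries. On the CPM scale (each library's counts divided by its TMM-scaled size), these were 2.12, 4.04 and 3.30 against 6.25, 9.54 and 10.7, so every LPS + GSK-J4 library was above every GSK-J4 library. The log2 fold change was 1.47 (95% interval 0.735 to 2.21, SE 0.348) with an edgeR adjusted p of 0.00562. The gene is the only member that passed the filter on low counts through the LPS + GSK-J4 libraries alone. It is high there, so the filter favoured both the call and the separation of the groups. At 9 to 26 counts it is thinly covered. Its call was lost with DESeq2 (1.44, adjusted p = 0.0290) and without GSK-J4 replicate 1, GSK-J4 replicate 3, LPS + GSK-J4 replicate 2 or LPS + GSK-J4 replicate 3, where the log2 fold change ranged from 1.23 to 1.496 and adjusted p from 0.0132 to 0.0332.

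Rnu12 had 23, 24 and 28 counts in GSK-J4 libraries and 16, 14 and 11 in LPS + GSK-J4 libraries. The groups overlapped once scaled (5.39 to 10.3 against 4.54 to 6.25 CPM), and the log2 fold change was -0.32 (95% interval -1.05 to 0.404, adjusted p = 0.549 by edgeR). The ratio of Rnu11 to Rnu12 counts within a library, which needs no scaling, was 0.391, 0.750 and 0.321 without LPS and 1.00, 1.79 and 2.36 with it. The log2 ratio differed by 1.83 between groups that did not overlap (2-sided exact permutation p = 0.1, the smallest that 3 against 3 allows). This ratio was chosen after the values were seen. Rnu11 was included only through the LPS + GSK-J4 libraries, where it is high, so the filter favoured a higher ratio with LPS. Of the other Rnu genes, Rnu6 and Rnu7 had no counts and Rnu73b, a snoRNA despite its symbol, had 13 over all libraries.

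Small RNAs reached the count tables in very unequal amounts. Rpph1 made up 40.0% to 48.0% of all counts on small RNA genes in a library and Rmrp 37.7% to 49.7%. Rpph1 had 10339, 13471 and 11003 counts in GSK-J4 libraries and 7394, 7609 and 6961 in LPS + GSK-J4 libraries, which after scaling came to 3166 ± 807 and 2888 ± 14.6 CPM (mean ± SD, n = 3). Rmrp had 9549, 10671 and 9219 counts against 7156, 8034 and 8648, or 2676 ± 614 and 3143 ± 395 CPM (mean ± SD, n = 3). Both overlapped between groups on the CPM scale: the log2 fold change of Rpph1 was -0.13 (adjusted p = 0.555, edgeR) and that of Rmrp was 0.23 (adjusted p = 0.269, edgeR). Raw counts were lower in the LPS + GSK-J4 libraries while Rn45s, the ribosomal RNA precursor, took 25.6% ± 5.88 of counts on genes in GSK-J4 libraries and 47.1% ± 1.15 in LPS + GSK-J4 libraries (mean ± SD, n = 3).

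The ratio of the 2 ribonuclease RNAs within a library did not overlap between groups. The log2 of the Rpph1 to Rmrp ratio was 0.235 ± 0.112 in GSK-J4 libraries and -0.115 ± 0.183 in LPS + GSK-J4 libraries, a difference of -0.35 (n = 3, exact permutation p = 0.1, the smallest possible; chosen after the values were seen). Replicate 3 of both groups stood apart from the others on the second principal component of all genes, and without both of them Rmrp passed the test (log2 fold change 0.34, adjusted p = 0.000787 by edgeR) while Rnu11 did not (1.35, adjusted p = 0.0195 by edgeR). Terc was near the detection limit, with 11, 12 and 18 counts against 5, 11 and 12, and its log2 fold change was -0.00 (95% interval -1.08 to 1.07, adjusted p = 0.997 by edgeR).

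**Figure D1:**
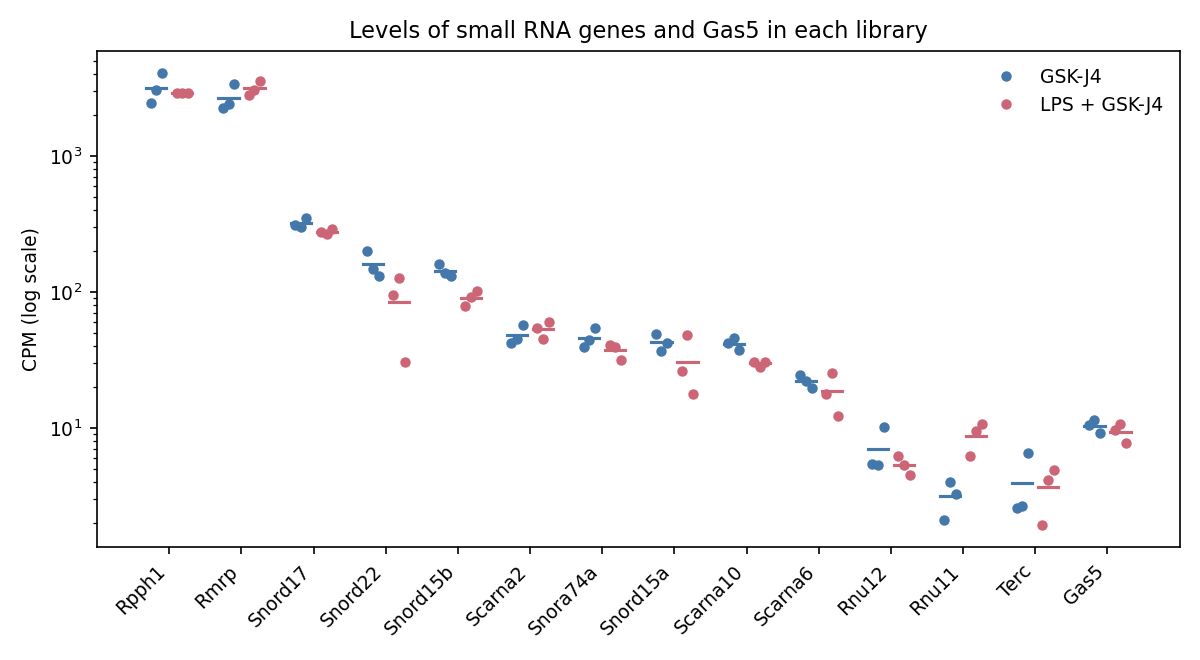
CPM (log scale) of the 10 small RNA genes with the highest mean level and of Rnu12, Rnu11, Terc and Gas5 in each library; points are the 3 libraries of each group and bars their means. Rpph1 and Rmrp are at 2253 CPM or more in each library and the snoRNAs at 348 or less, and the groups separate for Snord17, Snord22, Snord15b, Scarna10 and Rnu11.

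The share of counts on small RNA genes, with Rn45s, Mir6236 and Lars2 left out of the total, was 1.25% ± 0.245 in GSK-J4 libraries and 1.22% ± 0.0526 in LPS + GSK-J4 libraries (mean ± SD, n = 3, exact permutation p = 1). Without Rpph1 and Rmrp the share was 0.181% ± 0.0124 against 0.140% ± 0.0126, with no overlap (n = 3, exact permutation p = 0.1). This share was not among the planned comparisons. It includes Snord17, Snord22 and Snord15b, which were each lower without overlap, so it is not separate from them. Taken of all counts on genes, Rn45s included, the small RNA share was 0.815% ± 0.0676 against 0.559% ± 0.0314 (n = 3, exact permutation p = 0.1). Rn45s made up 25.65% of that total in GSK-J4 libraries and 47.11% in LPS + GSK-J4 libraries. With the 3 ribosomal features left out, as above, the shares of the groups overlapped. Fewer cells of a type and less RNA per cell cannot be told apart in these bulk samples.

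Small RNA genes of greater annotated length were seen more often, but length was not separated from abundance or from loss in counting. The 66 small RNA genes of at most 100 nucleotides had 353 counts in all, 0.277% of the counts on small RNAs, and none could be tested. The 7 genes of 101 to 120 nucleotides held 0.0362% and none could be tested. The 42 genes of 121 to 160 nucleotides held 6.01% of the counts and 17 were tested, while 6 had no counts. The 11 longer genes held 93.7% and all 11 were tested. Of the 119193 counts on these 11, Rpph1 had 56777 and Rmrp 53277. C/D snoRNAs are short (median 80 nucleotides over 73 genes with a position), and 22 of the 74 had no counts; H/ACA snoRNAs are longer (median 132 nucleotides) and 32 of 36 had counts. Snord104, the untested C/D snoRNA with most counts, had 47 over 6 libraries. A gene with no or few counts was not detectable in these libraries and is not shown to be absent from the cells.

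**Figure D2:**
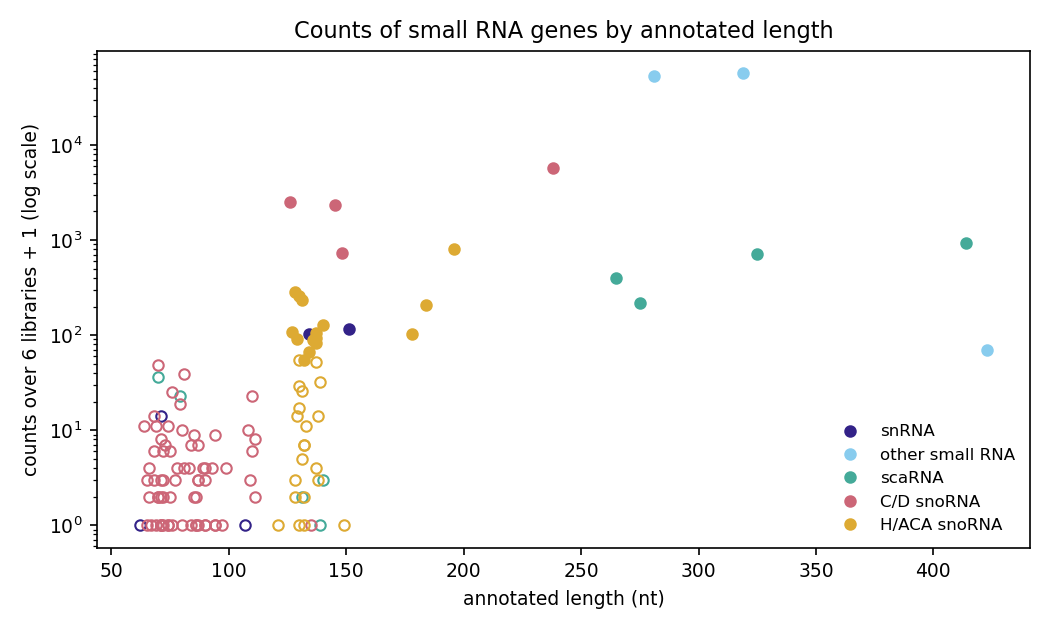
Counts summed over the 6 libraries plus 1 (log scale) against annotated length in nucleotides for the 126 small RNA genes with a length; filled points were tested and open points were not. No gene of at most 120 nucleotides has more than 47 counts, while Rpph1 has 56777.

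The 4 C/D snoRNAs that could be tested, Snord17, Snord22, Snord15a and Snord15b, held 97.2% of the counts on C/D snoRNAs. Their transcripts are printed, 5′ to 3′ from GENCODE M21 (mm10), with 2 motifs in capitals: TGATGA (C box) where it begins within the first 25 bases and CTGA (D box) within the last 15 bases, searched on the transcript strand only. They lie at chr7:99479563-99479707 (minus strand, Snord15b), chr7:99482785-99482932 (minus strand, Snord15a), chr19:8725866-8725991 (plus strand, Snord22) and chr2:144265979-144266216 (minus strand, Snord17). Snord22 held no TGATGA in its first 25 bases. Of the 73 Snord transcripts, 63.0% held the first motif, 90.4% the second and 60.3% both in these windows.
Snord15b: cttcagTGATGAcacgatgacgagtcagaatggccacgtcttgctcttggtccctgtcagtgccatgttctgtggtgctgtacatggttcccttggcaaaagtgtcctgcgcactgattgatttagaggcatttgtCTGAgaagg
Snord15a: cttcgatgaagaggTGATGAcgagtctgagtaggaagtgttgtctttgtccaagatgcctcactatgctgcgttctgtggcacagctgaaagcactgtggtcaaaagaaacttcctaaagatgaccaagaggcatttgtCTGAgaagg
Snord22: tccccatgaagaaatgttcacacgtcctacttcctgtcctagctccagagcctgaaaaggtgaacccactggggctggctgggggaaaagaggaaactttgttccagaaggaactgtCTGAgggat
Snord17: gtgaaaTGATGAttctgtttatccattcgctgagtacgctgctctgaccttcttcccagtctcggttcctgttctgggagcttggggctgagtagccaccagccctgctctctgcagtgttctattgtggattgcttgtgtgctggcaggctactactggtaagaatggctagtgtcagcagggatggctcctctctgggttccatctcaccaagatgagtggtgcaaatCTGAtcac

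All 4 tested C/D snoRNAs had a negative log2 fold change, from -0.92 to -0.20, and 1 of them passed the test. Snord15b, which guides methylation of 28S ribosomal RNA, had 681, 615 and 359 counts in GSK-J4 libraries and 203, 240 and 248 in LPS + GSK-J4 libraries. On the CPM scale these were 161, 138 and 132 against 79.2, 91.6 and 102, and the groups did not overlap. It fell by 0.66 on the log2 scale (95% interval -0.946 to -0.370, SE 0.136, edgeR adjusted p = 0.00206). The call was lost without GSK-J4 replicate 1, LPS + GSK-J4 replicate 1 or LPS + GSK-J4 replicate 2, with log2 fold changes of -0.66 to -0.57 and adjusted p from 0.0115 to 0.0168, and was kept under the other alternatives.

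Snord15a lies in an intron of the same host, Rps3, while Snord15b overlaps an annotated exon of one of its transcripts. It is identical to Snord15b at 98 of 152 aligned positions. It had 208, 163 and 115 counts against 67, 127 and 43, which was 49.1, 36.6 and 42.2 against 26.2, 48.5 and 17.8 CPM. The second LPS + GSK-J4 library was as high as the GSK-J4 libraries, and the log2 fold change of -0.46 (95% interval -1.01 to 0.0907) did not pass the test (edgeR adjusted p = 0.226). Whether the 2 paralogs differed from each other was not shown: the log2 of their count ratio was 1.76 ± 0.142 and 1.68 ± 0.808 (n = 3, exact permutation p = 0.8).

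Snord22, the U22 RNA used in 18S ribosomal RNA processing, had 847, 659 and 355 counts in GSK-J4 libraries and 243, 334 and 74 in LPS + GSK-J4 libraries. Its CPM did not overlap (200, 148 and 130 against 94.8, 127 and 30.6), but the spread was wide and the log2 fold change of -0.92 (95% interval -2.12 to 0.286) had an edgeR adjusted p of 0.251. The value rests on single libraries: it was -0.53 without LPS + GSK-J4 replicate 3 (adjusted p = 0.0291 by edgeR) and -1.34 without LPS + GSK-J4 replicate 2 (adjusted p = 0.0861 by edgeR). Snord17, the most abundant snoRNA, had 318 ± 25.5 against 277 ± 12.4 CPM (mean ± SD, n = 3) with no overlap and a log2 fold change of -0.20 (edgeR adjusted p = 0.218). Over all 35 members tested, 1 lay higher and 6 lower without overlap, while 19.8% of all genes were higher and 18.4% lower without overlap. The median log2 fold change was -0.16 over the members, with 24 below and 11 above 0, and -0.00 over all genes. The 7 members that passed the filter on low counts only through the GSK-J4 libraries were all below 0. Rnu11, which passed only through the LPS + GSK-J4 libraries, was above 0. The filter favoured these signs, so the tally is not a free count of directions.

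The scaRNAs had no call among 4 tested by edgeR and none by DESeq2. At an unadjusted edgeR p under 0.05 there was 1, against 34.8% of all genes. Scarna10 had 178, 205 and 102 counts against 79, 74 and 74, or 42.0, 46.0 and 37.4 against 30.8, 28.2 and 30.6 CPM. Its groups did not overlap, and its log2 fold change of -0.49 (SE 0.159) had an edgeR adjusted p of 0.0343. It passed the threshold without replicate 3 of both groups (-0.57, adjusted p = 0.00742 by edgeR). Scarna2, which is transcribed from a gene of its own, was at 48.1 ± 7.69 and 53.3 ± 7.88 CPM (log2 fold change 0.16, edgeR adjusted p = 0.541), and Scarna6 was at 22.2 ± 2.37 and 18.6 ± 6.62 CPM (-0.25, edgeR adjusted p = 0.480).

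None of the 15 H/ACA snoRNAs tested passed by edgeR and none by DESeq2. At an unadjusted edgeR p under 0.05 there was 1, against 34.8% of all genes. Their log2 fold changes ran from -1.08 to 0.65 with a median of -0.26. The lowest was Snora70, with 31, 27 and 13 counts against 6, 8 and 8 (7.31, 6.06 and 4.77 against 2.34, 3.05 and 3.30 CPM). Its groups did not overlap and its log2 fold change was -1.08 (95% interval -1.84 to -0.320, edgeR adjusted p = 0.0380). Snora70 passed the filter on low counts only through the GSK-J4 libraries, where it is high, so the filter favoured both. The highest was Snora7a at 0.65 (edgeR adjusted p = 0.280), with 26, 14 and 21 counts against 11, 20 and 34. Snora74a was the most abundant, at 45.9 ± 7.69 and 37.5 ± 4.97 CPM (mean ± SD, n = 3), with a log2 fold change of -0.28 (edgeR adjusted p = 0.266). The terminal ACA of this class was found in the last 8 bases of 94.4% of the 36 transcripts.

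**Figure D3:**
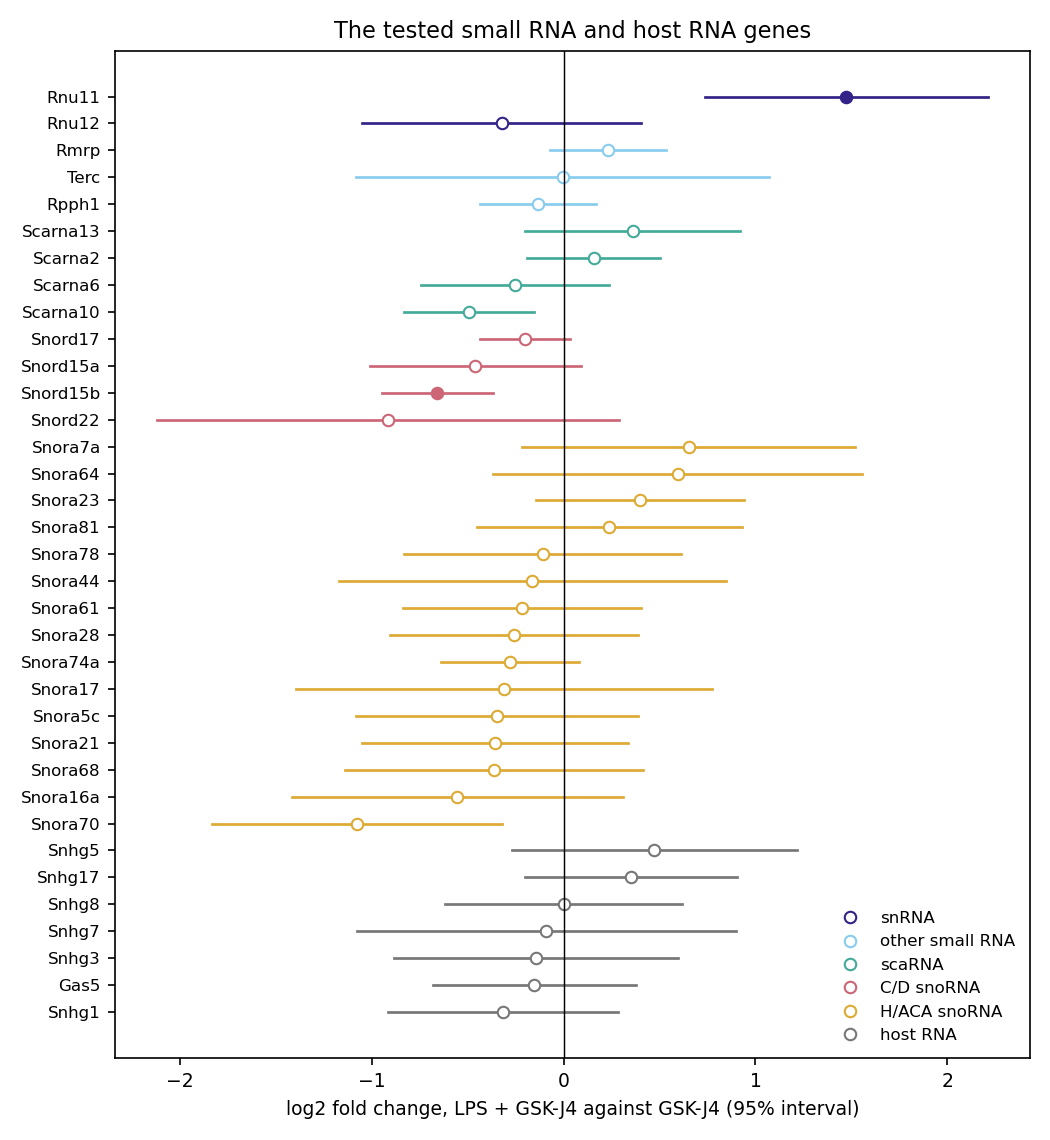
log2 fold change (LPS + GSK-J4 against GSK-J4) with 95% intervals from edgeR for the 35 members tested, coloured by class; filled points have an adjusted p of at most 0.01. Only Rnu11 (1.47) and Snord15b (-0.66) are filled, and the 4 C/D snoRNAs all lie left of 0.

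The host RNAs were low and did not pass the test. Of the 16 Snhg genes and Gas5 together, all had at least 1 count and 7 were tested, with 0 called by edgeR and 0 by DESeq2. At an unadjusted edgeR p under 0.05 there were 0, against 34.8% of all genes. Gas5, a long noncoding RNA whose introns carry many C/D snoRNAs, had 45, 51 and 25 counts in GSK-J4 libraries and 25, 28 and 19 in LPS + GSK-J4 libraries. This was 10.4 ± 1.15 and 9.43 ± 1.45 CPM (mean ± SD, n = 3), a log2 fold change of -0.15 (95% interval -0.679 to 0.375, edgeR adjusted p = 0.714). The log2 fold changes of the others were -0.32 for Snhg1, -0.14 for Snhg3, -0.09 for Snhg7, 0.00 for Snhg8, 0.35 for Snhg17 and 0.47 for Snhg5, with groups that overlapped in each.

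A host for 114 of the small RNA genes was found in the tables by position in mm10 annotations, and 83 distinct hosts were involved; 59 small RNAs lay within an intron, 51 overlapped an annotated exon of some host transcript and 4 were placed by the host's RefSeq span. The tested snoRNAs and scaRNAs had 19 hosts, of which 15 were tested and 0 passed (edgeR). At an unadjusted edgeR p under 0.05 there were 3, 1 higher and 2 lower, against 34.8% of all genes. DESeq2 called 1, and 10.4% of all genes. The hosts of untested snoRNAs were not examined as a set. Nop58 and Nop56 are among them and rose, as given below. Rps3, the ribosomal protein gene that hosts Snord15a and Snord15b, was at 415 ± 4.33 and 392 ± 30.2 CPM (mean ± SD, n = 3) with a log2 fold change of -0.08 (95% interval -0.308 to 0.144, edgeR adjusted p = 0.634). Snx5, the host of Snord17, was at 312, 361 and 282 against 256, 245 and 186 CPM. Its groups did not overlap, and its log2 fold change of -0.48 had an edgeR adjusted p of 0.0196; DESeq2 called it (-0.52, adjusted p = 0.00695). Ncapd2, host of Scarna10, and Atg16l1, host of Scarna6, had log2 fold changes of 0.09 and -0.46 (edgeR adjusted p = 0.868 and 0.110).

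Host-intron signal could not be read from tables of gene counts, so the density of counts on a snoRNA was set beside that on the exons of its host. In 14 of the 20 pairs with both lengths, the snoRNA had more CPM per kilobase than the host, with ratios from 0.175 to 162 and a median of 13.8. Snord22 had 967 CPM per kilobase against 5.97 for Snhg1, and Snord17 had 1251 against 65.5 for Snx5. Snora7a was the lowest pair, with 51.1 against 293 for Rpl32. Host lengths join the exons of all annotated transcripts and can take in intron sequence. For Snhg1 they cover the whole gene span of 2969 bases. This can lower a host's density and raise the ratio. Snord22 lies within that span and had 2512 counts, although a fragment that overlaps exons of both genes is not counted. The exons counted for Snhg1 thus differed from those behind its density of 5.97 and the ratio of 162. A fragment that touches a short gene and no other gene's exon is counted on it in full, which raises its density, and one that also overlaps an exon of the host in the annotation used for counting is dropped, which lowers it. Neither was measured here, and how much of a snoRNA's count came from its host's precursor was not tested. Across the 16 pairs with both tested, the log2 fold changes of snoRNA and host had r = 0.17 and rho = 0.0971, and 10 pairs had the same sign; pairs share libraries, and 2 of them share Rps3.

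The ratio of snoRNA to host exon counts within a library was lower in LPS + GSK-J4 without overlap for 4 of 19 hosts and higher for 0, each with an exact permutation p of 0.1, the smallest possible with n = 3, and an adjusted p of 0.475 over the 19 ratios computed. No ratio was computed for other genes; on the CPM scale, 18.4% of all genes tested were lower without overlap. For Snord22 to Snhg1 the ratio was 8.39, 7.66 and 8.26 without LPS and 5.40, 5.76 and 3.89 with it, a difference of -0.72 on the log2 scale. The difference was -0.53 for Snord15a and Snord15b to Rps3 and -1.04 for Snora70 to Rpl10. Snora70 was included only through the GSK-J4 libraries, where it is high, so its ratio was favoured by the filter. The fourth host, Snhg9 (Snora78), had at most 2 counts in a library, under the floor of 3, so its ratio is set by the 0.5 added and no size is given. This leaves 2 hosts, Snhg1 and Rps3, without either limit. Their ratios use the Snord22, Snord15b and Snord15a counts given above, so they are not separate from those results.

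**Figure D4:**
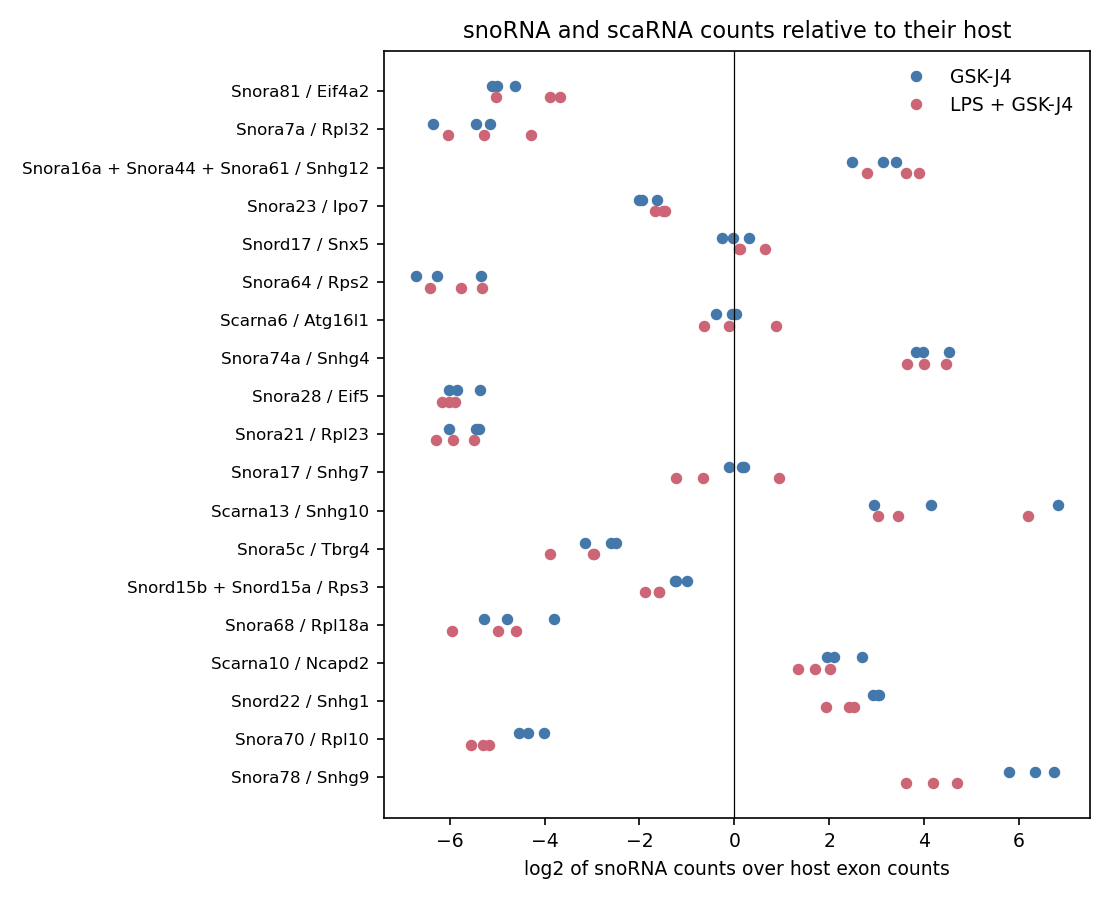
log2 of the ratio of snoRNA or scaRNA counts to host exon counts (0.5 added to both) in each library for the 19 hosts, ordered by the difference between groups. The groups separate, lower with LPS, for Snord15b + Snord15a to Rps3 and Snord22 to Snhg1; they also do for Snora70 to Rpl10, where the filter favoured a lower ratio, and for Snora78 to Snhg9, where the host has at most 2 counts in a library.

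Counts lay on the annotated strand. Small RNA genes had 22 to 42 antisense counts in a library, 0.0904% to 0.172% of their sense and antisense counts, while 0.966% to 1.38% of counts over all genes were antisense. No member had more antisense than sense counts in all 6 libraries. Rpph1 had 91 antisense counts over all libraries and Rmrp had 69, and the 4 tested C/D snoRNAs had at most 1 each.

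Genes for the proteins of small RNA particles were then examined, from a list of 89 in the tables, 76 of them tested. Of these 2 rose and 3 fell (6.58%, against 13.9% of all genes), and their log2 fold changes ran from -1.23 to 1.27. Both that rose encode core proteins of C/D snoRNA particles, a group of 4 tested genes. Each also hosts snoRNAs: Nop58 holds Snord70 and Snord11, and Nop56 holds Snord110 and Snord57. These snoRNAs had too few counts to be tested, so neither gene is among the hosts of tested snoRNAs above. Nop58 was at 24.5, 28.5 and 20.5 CPM in GSK-J4 libraries and 46.8, 56.5 and 37.2 in LPS + GSK-J4 libraries, a log2 fold change of 0.92 (SE 0.188, edgeR adjusted p = 0.00190). Nop56 was at 19.4, 15.3 and 18.3 against 33.6, 27.9 and 26.4 CPM, a log2 fold change of 0.74 (SE 0.189, edgeR adjusted p = 0.00957). The groups did not overlap for either gene. Nop56 lost its call with unstranded counts, DESeq2 size factors, DESeq2 and no filter (log2 fold changes 0.68 to 0.73) and in each fit without 1 library other than LPS + GSK-J4 replicate 3 (0.62 to 0.81). Nop58 lost it without GSK-J4 replicate 3 (0.82) or LPS + GSK-J4 replicate 2 (0.76).

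The 3 that fell take part in the synthesis of small nuclear RNAs or the 7SK particle. Mepce, the enzyme that caps 7SK RNA, was at 31.6, 22.7 and 29.7 against 13.7, 12.97 and 17.8 CPM (log2 fold change -0.92, SE 0.210, edgeR adjusted p = 0.00444). Ice2 and Ell, components of the little elongation complex that acts at snRNA genes, had log2 fold changes of -1.07 and -0.74 (edgeR adjusted p = 0.00559 and 0.00801). Ice2 was at 16.5, 15.9 and 15.8 against 5.07, 8.40 and 9.50 CPM and Ell at 26.0, 33.2 and 31.2 against 18.3, 18.3 and 17.3 CPM. Ice2 and Ell lost their calls in each fit without 1 library other than LPS + GSK-J4 replicate 3 (log2 fold changes -1.15 to -0.85 and -0.84 to -0.66), and with DESeq2 (-1.12 and -0.79). Mepce lost its call without GSK-J4 replicate 1 or 3 or LPS + GSK-J4 replicate 1 or 2 (-0.88 to -0.82). No protein gene of RNase P and MRP, the H/ACA core, the spliceosomal snRNP or the signal recognition particle passed (edgeR). Of the 8, 5, 13 and 5 tested in these groups, 2, 1, 3 and 0 had an unadjusted edgeR p under 0.05, against 34.8% of all genes.

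**Figure D5:**
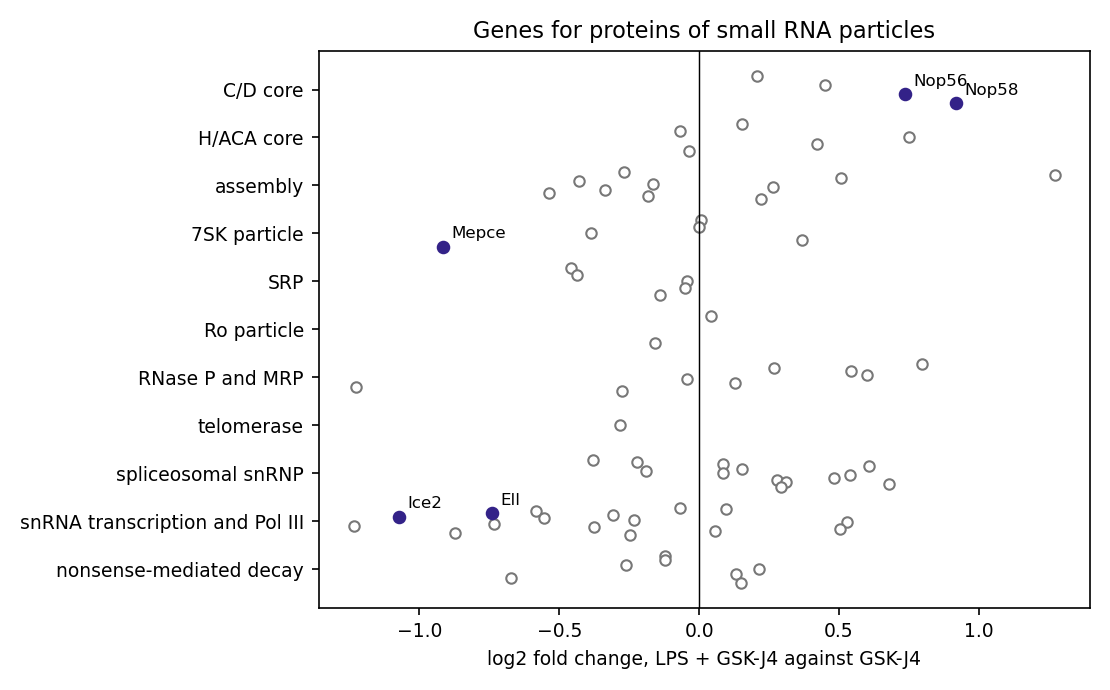
log2 fold change between groups (positive where higher with LPS) of the 76 tested genes for proteins of small RNA particles, one row per particle; filled and named points have an edgeR adjusted p of at most 0.01. Nop56 and Nop58 lie right of 0 and Mepce, Ice2 and Ell left of it.

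The libraries held 2597505 to 3472716 counts on genes, 1374377 to 2443344 without the ribosomal features. Microglial markers (8 genes, all tested, 0 higher and 2 lower) summed to 2631 to 2725 CPM in GSK-J4 libraries and 2058 to 2120 in LPS + GSK-J4 libraries. Astrocyte markers (3 of 6 higher) summed to 50.3 to 56.8 against 121 to 155, oligodendrocyte lineage markers (3 of 4 tested higher) to 117 to 143 against 222 to 249 and neuronal markers (2 of 2 tested higher) to 10.9 to 11.2 against 26.8 to 30.2. Fibroblast markers (0 of 5 called) summed to 71.8 to 262 against 131 to 393 and endothelial markers (1 of 1 tested higher) to 11.2 to 16.3 against 17.95 to 55.3. The part of these differences in the results for Rnu11, Snord15b and the particle proteins was not tested.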

How the data were processed

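RNA was depleted of ribosomal RNA and made into directional libraries. Per the labels, the authors trimmed reads (Trimmomatic 0.33), aligned them to mm10 with STAR 2.5.1 and deposited its raw counts per gene, without any normalization. A fragment was counted only where it mapped to 1 place and overlapped 1 gene, so copies of a small RNA that cannot be told apart, and snoRNAs overlapping a host exon, lose counts. The gene annotation used is not given in the sources used here. Reverse-strand counts were used; tallies of unassigned fragments were left out, 4342213 to 5298479 per library without a feature.

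The members and lists were chosen with earlier results of these data known. Groups came from titles. Counts of all genes were fitted with edgeR 4.0.16 (robust quasi-likelihood, TMM, filterByExpr with a minimum of 10 and a total of 15), adjusted by Benjamini-Hochberg over 10133 genes and called at 0.01; scripts were tested on simulated data. CPM use TMM factors. Ratios and shares had 2-sided exact permutation tests over samples. Positions, lengths and hosts came from GENCODE M21 and RefSeq (mm10): 140 members matched GENCODE, 2 RefSeq only and 1 neither. Named were called members, Gas5, Rmrp, Rpph1 and Terc, the 10 highest by mean CPM, their hosts, members with more antisense than sense counts, and the 3 largest called changes in each direction among particle proteins; Rnu12, Snora70, Snora7a, Rnu6, Rnu7, Rnu73b, Snord104, Snora78, Snhg9, Rpl10, Rpl32, Eif4a2 and the other tested Snhg genes were added after their values were seen. Alternatives were unstranded counts, DESeq2 size factors, DESeq2 1.42.0, other filters, a threshold of 0.05, a replicate block, removal of ribosomal features and leaving out libraries. Counting error limits members under 10 counts.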

Additional observations from a re-analysis of the deposited data

Results flagged for a closer look

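Antisense counts on the Snhg genes and Gas5 lie outside the comparisons above and were higher in every LPS + GSK-J4 library (8, 3 and 4 counts, mean 5) than in the GSK-J4 libraries (2 counts in each), beside 137 to 241 and 188 to 371 sense counts. These counts are at or near the floor of 3 counts, and no test was made of the difference.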

How the results depend on the processing

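The calls rest on few counts and on single libraries. Leaving out 1 library at a time gave 0 to 1 members higher, 0 to 1 lower and 0 to 1 at a log2 fold change of at least 1.5, all of them small RNA genes, and 0 to 3 particle protein genes higher and 0 to 4 lower. Of all genes, these fits called 8.8% to 15.3%, against 13.9% with all libraries. The same fits called 0 Snhg and Gas5 genes and 0 hosts of tested snoRNAs. Without 1 library, 0 to 3 hosts had a higher ratio without overlap and 4 to 6 a lower one. Leaving out a library cannot undo a separation, so these counts could only stay at 0 and 4 or grow and are no check on them. The small RNA share differed by -0.120 to 0.112 percentage points (-0.0271 with all libraries). Members called higher came to 0 with DESeq2 (10.4% of all genes called) and with at least 10 counts in every library (14.3%). Members called lower came to 3 at an adjusted p of 0.05 (23.6% of all genes called) and to 2 without replicate 3 of both groups (16.9% of all genes called). That last fit was chosen after seeing the data, and in it Rmrp took the place of Rnu11 among those higher. Snhg and Gas5 genes had 0 calls in each alternative. Hosts called lower came to 1 with DESeq2, at 0.05 and without replicate 3 of both groups, and to 2 with no filter (Snx5 and Eif4a2, at -0.50). Particle protein genes called higher came to 1 with unstranded counts, DESeq2 size factors, DESeq2 and no filter, and those lower to 1 with DESeq2 and 6 at 0.05. Of all genes, 14.2% were called with unstranded counts, 13.9% with DESeq2 size factors and 10.8% with no filter. The share of small RNAs differed by -0.256 percentage points with all counts on genes, Rn45s included, as the denominator.

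Whether the replicate numbers pair the samples was not settled. The correlations of same-numbered deviations were -0.0102, 0.117 and 0.295, and 3 of 6 libraries correlated best with their own number. On the second principal component only replicate 3 of both groups had negative values (-15.8 and -29.6). Without a block, 13.9% of all genes were called. With the replicate number as a block, 22.5% of all genes were called, with 1 member higher, 2 lower (Snord15b and Scarna10) and 2 hosts lower, while particle protein genes came to 3 higher and 4 lower; the difference in share stayed -0.0271 (exact sign-flip p = 1).

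Signs turned only for genes that did not pass the test. Without replicate 3 of both groups the log2 fold change was 0.0919 for Rpph1, 0.11 for Rnu12, 0.0174 for Snora78, 0.36 for Snhg7, 0.16 for Snora17, 0.23 for Terc, 0.60 for Snora44 and -0.0488 for Rpl10. Snhg8 turned to -0.0235 with unstranded counts, -0.00824 with DESeq2 size factors, -0.0457 with DESeq2 and -0.0532 with no filter, Terc to 0.00366 with unstranded counts and Rpl10 to -0.00111 with DESeq2 and -0.00707 with no filter. Without single libraries the range was -0.29 to 0.0796 for Rpph1, -0.25 to 0.47 for Terc, -0.16 to 0.21 for Snhg8, -0.43 to 0.19 for Snhg7, -0.50 to 0.14 for Snhg3, -0.76 to 0.22 for Snora78, -0.83 to 0.32 for Snora44, -0.69 to 0.0639 for Snora61, -0.71 to 0.13 for Snora68, -0.0526 to 0.38 for Snora81, -0.12 to 0.26 for Ncapd2 and -0.0299 to 0.0926 for Rpl10. The cause of these changes was not tested.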
